A study of Mus musculus with 6 samples.

Results

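The enzymes that make serine and glycine, pass single carbons through folate and build purine and pyrimidine nucleotides were followed in neural stem cells of adult mice, resting or activated. The set holds 34 genes, taken by name from these pathways, with earlier results of these data known. It has 10 genes of the serine and folate arm, 12 of the purine arm and 12 of the pyrimidine and deoxynucleotide arm. A probe set annotated to exactly 1 gene was found for 32 of the 34 members, among 18193 genes with such a probe set, and the brightest one was used. Amt and Impdh2 had none and were not analysed here. Impdh1 fell under the filter on dim genes, which left 31 members among 11575 genes tested.

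The cells were sorted from the ventricular-subventricular zone, a niche along the lateral ventricles, and their RNA was measured on 6 1-colour expression arrays. All cells carried green fluorescent protein driven by the GFAP promoter and were positive for CD133 (prominin). Quiescent stem cells were GFAP::GFP+ CD133+ and CD24- (3 arrays), and activated stem cells passed the same gate and were also EGFR+, that is, positive for the receptor of epidermal growth factor (3 arrays). A GFAP reporter is also active in astrocytes, so the groups are defined by marker gates and not by observed division. Set against those gates, Egfr RNA was higher in activated cells (2.11 on the log2 scale). Gfap RNA (-4.18) and Prom1 RNA (-1.22, above background in both groups) were lower and Cd24a RNA was higher (4.13), although both groups were gated alike on the reporter, CD133 and CD24. The labels call the arrays biological replicates of adult animals, but strain, exact age and any pooling of animals for an array were not found in the labels. If the replicates share animals, the p-values measure the spread between arrays only.

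As background, Phgdh, Psat1 and Psph convert a glycolytic intermediate into serine, and the serine hydroxymethyltransferases Shmt1 and Shmt2 split serine into glycine and a carbon unit carried by folate. Folate enzymes of cytosol and mitochondria turn that unit into the formyl groups of purine rings and the methyl group of thymidylate. Dividing cells need purines and pyrimidines for RNA and DNA, whereas deoxynucleotide synthesis is closely tied to S phase in many cell types.

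Activated cells had higher signals for the folate carbon enzymes and for nearly all pyrimidine and deoxynucleotide enzymes, and lower signals for the serine synthesis enzymes and for Gldc of the glycine cleavage system. Of the 31 tested members, 21 were called higher and 4 lower by limma (Benjamini-Hochberg adjusted p under 0.05 over all 11575 genes), where 17.3% of all genes tested were called higher and 17.6% lower. The signals of the 3 activated arrays lay above those of all quiescent arrays for 25 members and below them for 4, against 25.1% and 25.5% of all genes tested. The median difference, activated minus quiescent, was 1.86 on the log2 scale over the tested members and 0.01 over all genes tested. By arm the medians were 0.78 for serine and folate, 1.08 for purines and 2.82 for pyrimidines and deoxynucleotides. Because these are sorted cells measured in bulk, fewer cells of a type and less RNA per cell cannot be told apart in any of these values.

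**Figure D1:**
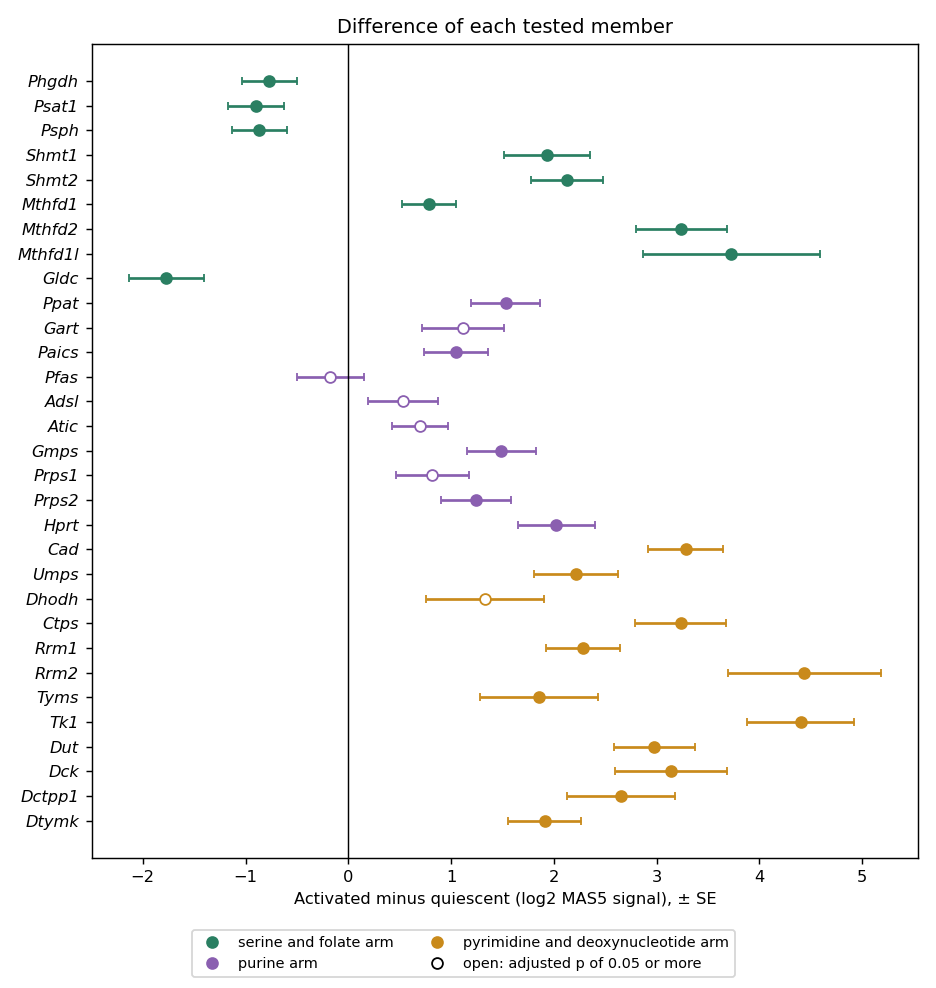
Difference of each of the 31 tested members, activated minus quiescent, in log2 units, with the standard error from the limma fit as bars. Filled points passed the threshold and open points did not. Points of the pyrimidine and deoxynucleotide arm lie between 1.33 and 4.44, whereas Phgdh, Psat1, Psph and Gldc lie below 0.

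The arrays differed in some technical measures along with the groups. Bacterial control probe sets placed the background at a log2 signal of 5.67 ± 0.37 (SD, n = 3) on quiescent and 4.60 ± 0.07 on activated arrays. The hybridisation controls, bacterial transcripts added to each array's mixture, read 14.3 ± 0.53 and 13.7 ± 0.05, with 14.9 on quiescent array 1. Each of these gaps, and that between the 3′ and 5′ probes of Gapdh (2.05 ± 0.52 and 1.37 ± 0.17), had an exact two-sided permutation p of 0.1, the smallest that 3 against 3 arrays allow. The same measure for actin went the other way (-0.05 ± 0.16 and 0.07 ± 0.16), with a permutation p of 0.4. When arrays were scaled to the hybridisation controls, the median of all genes moved to 0.66, with 26.4% of genes called higher and 8.15% lower. Under that scaling 5 serine and folate members, 8 purine members and all 12 pyrimidine and deoxynucleotide members were called higher and 0 members were called lower by limma, with 1 at an unadjusted p under 0.05.

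Marker genes of other cell types also differed between the groups, and their part in the results was not tested. Of all genes tested, 17.3% were called higher and 17.6% lower. All 9 tested oligodendrocyte markers were lower in activated cells, with a summed linear signal of 21099 to 81094 on quiescent and 2377 to 6210 on activated arrays. Pericyte markers summed to 5115 to 9377 and 439 to 712, with 4 of 5 tested lower. Kcnj8, Abcc9 and Anpep were at background on every activated array, and each also on 2 quiescent arrays. Endothelial markers summed to 1293 to 3922 and 168 to 256, with 3 of 4 tested lower. Pecam1, Kdr, Tek and Tie1 were at background on every activated array, Kdr also on 1 quiescent array and Tie1 on 2. Microglial markers summed to 443 to 757 and 160 to 211, the 1 tested marker was not called, and Tmem119, Aif1 and C1qa were at background on all arrays of both groups. Ependymal markers summed to 1563 to 1996 and 1913 to 2825, with 1 of 4 tested higher and 3 lower. Spag17 was at background on every activated array and on 2 quiescent arrays, and Hydin on all arrays of both groups. The activated sum rested on the higher marker, Dnah11, and without it, an alternative added later, the ependymal sums were 1487 to 1860 and 209 to 416. Neuroblast markers summed to 4752 to 11869 on quiescent and 49703 to 56782 on activated arrays, with 6 of 10 tested higher. Mature neuron markers summed to 1018 to 1819 and 1801 to 3363, with 2 of 4 tested higher. The median difference of the 9 matched mature neuron markers was nevertheless -0.84. The list of neural stem cell genes itself had 6 of 10 tested members lower and 1 higher.

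All enzymes of serine synthesis had lower signals in activated cells. Phgdh, the dehydrogenase that commits a glycolytic intermediate to serine, read 14.47, 13.99 and 14.01 on quiescent arrays 1 to 3 and 12.94, 13.55 and 13.67 on activated arrays 1 to 3. Psat1, the aminotransferase of the next step, read 14.48, 13.84 and 13.53 on quiescent and 13.16, 13.15 and 12.85 on activated arrays. Psph, the phosphatase that releases free serine, read 11.29, 10.98 and 11.37 against 10.45, 10.36 and 10.23. In each of these genes all quiescent arrays lay above all activated ones, and quiescent array 1 was the highest for Phgdh and Psat1. The differences were -0.77 ± 0.27 (SE) for Phgdh, -0.90 ± 0.28 for Psat1 and -0.86 ± 0.27 for Psph, with limma adjusted p of 0.0457, 0.0278 and 0.0287, so each lay close to the threshold.

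These lower calls depend on scaling and on single arrays. Under scaling to the hybridisation controls the differences were -0.12 for Phgdh (adjusted p = 0.772), -0.26 for Psat1 (adjusted p = 0.475) and -0.22 for Psph (adjusted p = 0.690). All were still below the all-gene median of 0.66 under that scaling. Phgdh lost its call in 11 of 18 alternative settings, with adjusted p from 0.0251 to 0.772, and Psat1 and Psph in 7 of 19 each, with adjusted p up to 0.496 and 0.690. Leaving out any 1 activated array ended each of these calls, as did leaving out quiescent array 1 for Phgdh and Psph and quiescent array 2 for Phgdh and Psat1. Without quiescent array 1, whose hybridisation controls stood apart, 2 of the 4 lower calls of this arm were left. All 4 single-gene probe sets of Phgdh were below 0, from -0.77 to -0.24, and both of Psat1 were, from -1.07 to -0.90. A pair of probe sets that Phgdh shares with the loci Gm8096 and Gm6756 had overlapping groups (10.17 to 11.48 against 10.18 to 12.06, and 10.30 to 11.92 against 10.57 to 10.96), so the readings of Phgdh are uncertain as far as near-identical copies share its probes.

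Gldc is the decarboxylase of the mitochondrial system that breaks down glycine and hands its carbon to folate. It read 12.06, 11.28 and 11.40 on quiescent and 9.16, 10.30 and 9.96 on activated arrays. The groups did not overlap, and the lowest reading was that of activated array 1. The signal was 3.41-fold lower in activated cells (log2 difference -1.77 ± 0.36, limma adjusted p = 0.00404), and it was the only lower member whose difference was over 2-fold. The call held in 18 of 19 alternatives. Scaling to the hybridisation controls gave -1.13 with an adjusted p of 0.0540.

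The 5 enzymes that take serine's carbon into folate or process it further moved the other way. All were called higher, against 17.3% of all genes tested. Shmt1, the cytosolic serine hydroxymethyltransferase, read 9.61, 8.56 and 8.80 on quiescent and 10.35, 10.80 and 11.62 on activated arrays (1.93 ± 0.42, adjusted p = 0.00516). Shmt2, its mitochondrial counterpart, read 8.46, 9.58 and 9.10 against 11.02, 11.40 and 11.10 (2.13 ± 0.35, adjusted p = 0.00117). Another Shmt2 probe set, of similar quiescent brightness, read 9.11, 9.08 and 8.78 against 9.64, 9.08 and 9.30 (0.35), and its groups overlapped. The remaining Shmt2 probe sets gave 1.14 and 2.59. Mthfd1, a cytosolic enzyme with several activities that makes formyl folate for purines, read 11.09, 10.62 and 10.76 against 11.45, 11.79 and 11.58. With the brightest probe set of each of these genes the groups did not overlap, but the gap for Mthfd1 was small. Its difference of 0.78 ± 0.26 had an adjusted p of 0.0403. Mthfd1 lost its call in 8 of 19 alternatives, with adjusted p up to 0.157, among them leaving out quiescent array 2 or any 1 activated array.

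The largest differences among these 5 as fitted were those of Mthfd2 and Mthfd1l. Mthfd2, a mitochondrial dehydrogenase and cyclohydrolase known to be high in embryonic and tumour cells, read 6.76, 8.18 and 7.56 on quiescent and 10.51, 10.53 and 11.20 on activated arrays. Activated signals were thus 9.46-fold higher (3.24 ± 0.44, adjusted p = 0.000403). Mthfd1l, the mitochondrial synthetase that releases formate for export to the cytosol, read 3.37, 7.05 and 6.79 against 9.24, 9.46 and 9.69. Quiescent array 1 was at background for this gene, so with that array set to its background level the fold is given as at least 7.05 (fitted difference 3.73 ± 0.86, adjusted p = 0.00748). Mthfd2 kept its call in all 19 alternatives. Mthfd1l had a quiescent mean of 5.74, under the filter level of 6.02, and was tested only through its activated signals. The stricter filter on dim genes left Mthfd1l out, and it kept its call in the 18 alternatives that tested it. Both calls held without quiescent array 1.

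**Figure D2:**
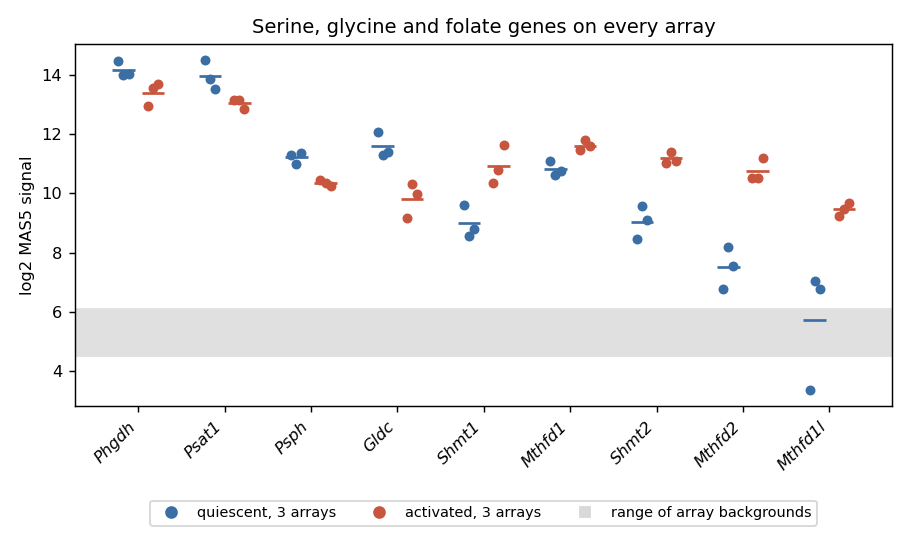
Log2 MAS5 signal of the 9 matched serine, glycine and folate members on each array, with the group mean as a line and the range of the array backgrounds as a grey band. Quiescent points lie above activated points in Phgdh, Psat1, Psph and Gldc and below them in Shmt1, Mthfd1, Shmt2, Mthfd2 and Mthfd1l.

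The change of the folate enzymes relative to the serine enzymes can be read within each array, where scaling cancels. The mean log2 signal of the 5 folate enzymes minus that of the 3 serine synthesis enzymes was -5.55, -4.14 and -4.37 on quiescent arrays and -1.67, -1.56 and -1.22 on activated arrays. Probe sets differ in brightness, so only the change of this gap carries information, and not its sign. A change of the gap cannot show whether the serine enzymes fell. Scaled to the hybridisation controls, Phgdh, Psat1 and Psph differed by -0.12, -0.26 and -0.22 and were not called. The gap moved by 3.21 log2 units between the groups, and its lowest activated value exceeded its highest quiescent value by 2.47. The gap between mitochondrial (Shmt2, Mthfd2, Mthfd1l) and cytosolic enzymes (Shmt1, Mthfd1) moved by 1.67, from -4.15, -1.33 and -1.96 to -0.65, -0.83 and -0.94. That change rested on quiescent array 1, where Mthfd1l was at background, and on the choice of probe sets: it was 0.84 without that array and 0.73 with the mean of all probe sets of each gene. The gap between folate and serine enzymes changed by 2.77 and 3.25 under the same alternatives, which were added after seeing the data. These gaps were composed after the signals had been seen and are given without a test.

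Promoter sequence is shown for these genes because the serine and folate members, which were called in opposite directions in the signals as deposited, often share a short element. Scaled to the hybridisation controls, 0 of these members were called lower. A CCAAT box (CCAAT, or ATTGG on the other strand) occurred in the RefSeq promoter, 250 bases before to 50 after the start, of 8 of 10 serine and folate members, against 37.4% of all 32851 promoters of the same 300 bases in assembly GRCm38.p6. All 4 lower members carried one wholly before the start, as did 8 of the 21 higher members and 3 of the 4 uncalled members with a promoter, against 33.9% of all promoters. The last 100 bases before the start follow 5′ to 3′ on the gene's strand, with the CCAAT box of either strand in capitals, for the 4 lower genes and for Shmt1 and Mthfd2, which were higher. The intervals are chr3:98339970-98340069 (minus strand) for Phgdh, chr19:15925060-15925159 (minus) for Psat1, chr5:129787254-129787353 (minus) for Psph, chr19:30175442-30175541 (minus) for Gldc, chr11:60811266-60811365 (minus) for Shmt1 and chr6:83317605-83317704 (minus) for Mthfd2.
Phgdh: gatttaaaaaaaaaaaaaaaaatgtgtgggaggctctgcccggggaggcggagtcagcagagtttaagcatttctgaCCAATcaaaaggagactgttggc
Psat1: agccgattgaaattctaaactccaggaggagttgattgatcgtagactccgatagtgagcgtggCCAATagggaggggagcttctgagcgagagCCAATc
Psph: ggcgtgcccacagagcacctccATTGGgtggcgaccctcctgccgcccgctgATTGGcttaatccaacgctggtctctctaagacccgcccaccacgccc
Gldc: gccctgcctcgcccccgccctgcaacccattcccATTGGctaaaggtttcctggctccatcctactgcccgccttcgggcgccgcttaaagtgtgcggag
Shmt1: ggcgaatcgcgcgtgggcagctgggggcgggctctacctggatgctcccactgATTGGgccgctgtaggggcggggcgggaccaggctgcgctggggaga
Mthfd2: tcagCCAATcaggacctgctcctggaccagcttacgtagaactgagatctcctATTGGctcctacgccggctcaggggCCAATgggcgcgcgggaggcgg
Psat1 and Psph carried 2 boxes in these 100 bases and Mthfd2 carried 3. The element was thus present both in members called lower and in members called higher, and a match in letters is a description, not a bound site.

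The purine arm moved less and less evenly. Of its 10 tested members 5 were called higher by limma, and 0 were called lower or had an unadjusted p under 0.05 in that direction. Differences ran from -0.17 to 2.02, and the groups did not overlap in 8 members, all higher. Of all genes tested, 17.3% were called higher and 17.6% lower, and 25.1% were higher without overlap. Prps2, an isoform of the synthetase that makes phosphoribosyl pyrophosphate, the sugar donor of all nucleotides, read 9.87, 9.13 and 10.20 on quiescent and 10.84, 10.90 and 11.20 on activated arrays (1.24 ± 0.34, adjusted p = 0.0165). Its call was lost without quiescent array 2 or without activated array 3, with adjusted p up to 0.0719. The sister isoform Prps1 read 10.02, 9.03 and 9.74 against 10.06, 10.54 and 10.63 and was not called (0.82, 95% interval 0.03 to 1.60, adjusted p = 0.0966).

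Within the inosine route, 2 of the 6 enzymes were called higher, against 17.3% of all genes tested. Ppat, the amidotransferase that starts the purine ring, read 9.81, 9.09 and 9.30 on quiescent and 11.36, 10.79 and 10.63 on activated arrays, with no overlap (1.53 ± 0.34, adjusted p = 0.00574). Its 3 probe sets disagreed, from -0.09 for a dim one to 1.87, and with their mean the difference was 1.10 with an adjusted p of 0.123. Paics, which joins 2 middle steps of the route in 1 protein, read 11.80, 12.34 and 12.13 against 12.74, 13.80 and 12.88, where activated array 2 was the highest (1.05 ± 0.31, adjusted p = 0.0250). Paics lost its call without the trend in variance, without quiescent array 1 and without activated array 2.

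The other enzymes of the inosine route did not pass the threshold. Gart, which carries 3 activities of the route, read 9.95, 9.65 and 8.56 against 10.31, 10.84 and 10.36, with no overlap (1.12, 95% interval 0.23 to 2.00, adjusted p = 0.0514). It passed in 10 of 19 alternatives. Atic, which closes the ring with a folate carbon, read 10.04, 9.94 and 9.85 against 10.60, 10.68 and 10.64, also with no overlap (0.70, 95% interval 0.09 to 1.30, adjusted p = 0.0711). Adsl, a lyase that acts in both the inosine and the adenylate branch, read 9.62, 9.27 and 9.12 against 10.26, 9.78 and 9.57, where the groups overlapped (0.53, 95% interval -0.22 to 1.29, adjusted p = 0.245). Pfas, the amidotransferase of the fourth step, was the only tested purine member below 0, at 10.74, 10.63 and 10.17 against 10.74, 10.39 and 9.89 (-0.17, 95% interval -0.89 to 0.54, adjusted p = 0.699), and its sign turned to 0.38 with arrays centred on their medians and 0.47 with the hybridisation controls. The intervals of these genes are wide, so they are not shown to be level.

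Downstream of inosine monophosphate, Gmps, which makes guanylate, read 8.65, 9.08 and 9.56 on quiescent and 10.52, 10.62 and 10.61 on activated arrays (1.49 ± 0.33, adjusted p = 0.00658). Hprt, which salvages hypoxanthine and guanine and is often used as a reference gene, read 8.87, 8.42 and 8.36 against 10.38, 10.15 and 11.19. With 4.07-fold higher signals (2.02 ± 0.38, adjusted p = 0.00236), Hprt had the largest difference of the purine arm. Neither gene's groups overlapped, and both kept their calls in every alternative run. Impdh1, an isoform of the dehydrogenase of the guanylate branch, read 3.08, 4.68 and 6.21 against 6.22, 5.44 and 5.18, with quiescent arrays 1 and 2 at background, and was not tested.

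**Figure D3:**
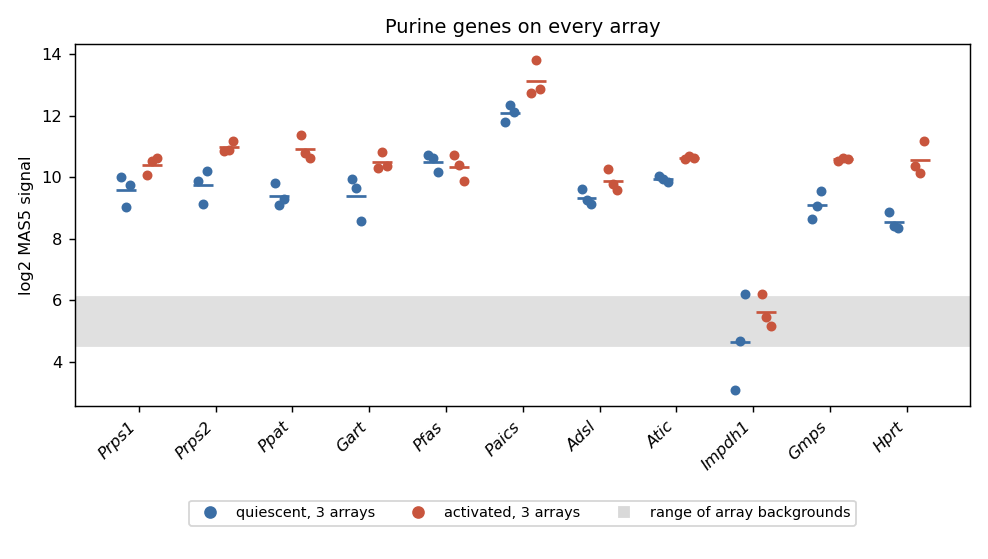
Log2 MAS5 signal of the 11 matched purine members on each array, with group means as lines and the range of the array backgrounds in grey. Ppat, Paics, Prps2, Gmps and Hprt were called higher in activated cells, Pfas overlaps almost entirely, and Impdh1 lies near background in both groups.

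Ppat and Paics are neighbours on chromosome 5 that are transcribed in opposite directions, with RefSeq starts 276 bases apart, so that their 5′ ends overlap. Ppat and Prps2 were the only members whose 300-base window held one of the E2F motifs searched (TTTCCCGC, TTTCGCGC or TTTGGCGC, both strands), against 1.85% of all promoters. The window of Ppat held 2 such matches, written GCGGGAAA on the gene's strand and shown in capitals in the 80 bases at chr5:76951719-76951798 (minus strand, beginning 220 bases before the start).
Ppat: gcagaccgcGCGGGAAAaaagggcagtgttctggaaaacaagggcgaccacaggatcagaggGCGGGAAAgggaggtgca
The E-box CACGTG occurred in the windows of Atic, Dtymk, Impdh2, Paics and Tyms, 5 of 32 members with a promoter, against 7.15% of all promoters. The amino acid response motif TGATGNAA occurred in that of Prps1 alone, against 3.97%. None of the serine and folate members held either motif, or an E2F motif, in this window, which says nothing of sites elsewhere.

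In the pyrimidine arm, all 12 members had activated signals above every quiescent signal, and 11 were called higher. Over all genes tested these shares were 25.1% and 17.3%. Cad, which joins the first 3 steps of uridine synthesis in 1 protein, read 8.10, 7.41 and 8.10 on quiescent and 10.86, 11.55 and 11.05 on activated arrays. Its signals were 9.74-fold higher in activated cells (3.28 ± 0.36, adjusted p = 0.000135). Umps, which completes uridine monophosphate, read 7.70, 8.23 and 7.12 against 10.08, 9.80 and 9.82 (2.21 ± 0.41, adjusted p = 0.00237). Ctps, which aminates uridine to cytidine triphosphate, read 8.01, 9.65 and 8.16 against 11.46, 11.95 and 12.12 (3.24 ± 0.44, adjusted p = 0.000403). The groups were separated by more than 1 log2 unit in each of these genes. Dhodh, the dehydrogenase of the inner mitochondrial membrane between Cad and Umps, read 8.03, 6.16 and 8.01 against 8.30, 9.08 and 8.81. It was the exception in this arm: quiescent array 2 was far below the others and the difference of 1.33 (95% interval 0.05 to 2.61) had an adjusted p of 0.0976.

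All 8 deoxynucleotide enzymes were called higher, against 17.3% of all genes tested, with a median difference of 2.82. Rrm2, the small subunit of ribonucleotide reductase whose supply limits the enzyme in S phase, read 6.90, 10.85 and 9.04 on quiescent and 13.37, 13.40 and 13.34 on activated arrays. Activated arrays were within 0.1 log2 units of each other, whereas the quiescent arrays spanned almost 4. The fitted difference was 4.44 ± 0.75 (21.7-fold, adjusted p = 0.00131), and it ranged from 3.42, without quiescent array 1, to 5.40, without quiescent array 2. It was the largest of the members as fitted, but Tk1 exceeded it in 4 of 19 alternatives. All 3 probe sets of Rrm2 gave 4.36 to 4.95. Rrm1, the large subunit, read 10.09, 11.28 and 9.82 against 12.78, 12.63 and 12.63 (2.28 ± 0.36, adjusted p = 0.000959). The 100 bases before both starts, at chr7:102441595-102441694 (plus strand) for Rrm1 and chr12:24708154-24708253 (plus) for Rrm2, are shown with CCAAT boxes in capitals.
Rrm1: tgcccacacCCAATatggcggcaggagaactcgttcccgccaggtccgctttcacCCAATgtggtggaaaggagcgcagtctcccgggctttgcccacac
Rrm2: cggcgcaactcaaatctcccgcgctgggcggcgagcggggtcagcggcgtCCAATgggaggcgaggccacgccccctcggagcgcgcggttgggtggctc
Rrm1 carried 2 boxes in this stretch and Rrm2 carried 1. In the 300-base window a CCAAT box occurred in 4 of 11 pyrimidine and deoxynucleotide members with a promoter. That is near the 37.4% of all promoters, so the element was not particular to this arm.

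The 4 members of thymidylate synthesis and salvage were called higher. Dut, which makes the substrate of thymidylate synthase and keeps uracil out of DNA, read 10.12, 10.89 and 9.15 on quiescent and 13.24, 13.06 and 12.80 on activated arrays (2.98 ± 0.40, adjusted p = 0.000353). Tyms, the synthase that takes its methyl group from folate, read 5.94, 7.39 and 6.13 against 8.47, 7.76 and 8.79. With quiescent array 1 at background its signals were at least 3.48-fold higher (1.85 ± 0.57, adjusted p = 0.0289), and the call was lost in 5 of 18 alternatives, with adjusted p up to 0.116: the mean of its probe sets and leaving out quiescent array 1, quiescent array 3, activated array 1 or activated array 3. A brighter probe set that Tyms shares with its pseudogene Tyms-ps read 7.72, 9.01 and 8.66 against 12.24, 11.91 and 11.75, so the size of the Tyms difference is uncertain. Tk1, the cytosolic salvage kinase of thymidine, read 7.18, 5.41 and 5.98 against 10.29, 10.42 and 11.06, at least 20.9-fold higher with quiescent array 2 at background (4.40 ± 0.52, adjusted p = 0.0002). Dtymk, the kinase shared by both branches, read 11.64, 10.36 and 11.68 against 12.86, 13.30 and 13.25 (1.91 ± 0.36, adjusted p = 0.00243).

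Salvage and sanitation enzymes of the same arm rose as well. Dck, the kinase that salvages deoxycytidine and purine deoxynucleosides, read 6.41, 8.78 and 8.19 on quiescent and 11.16, 10.82 and 10.83 on activated arrays (3.14 ± 0.55, adjusted p = 0.00162). Dctpp1, which removes deoxycytidine triphosphate and its modified forms, read 9.39, 8.82 and 11.24 against 12.82, 12.34 and 12.25 (2.66 ± 0.52, adjusted p = 0.00323). Neither gene's groups overlapped, and both kept their calls in every alternative run.

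**Figure D4:**
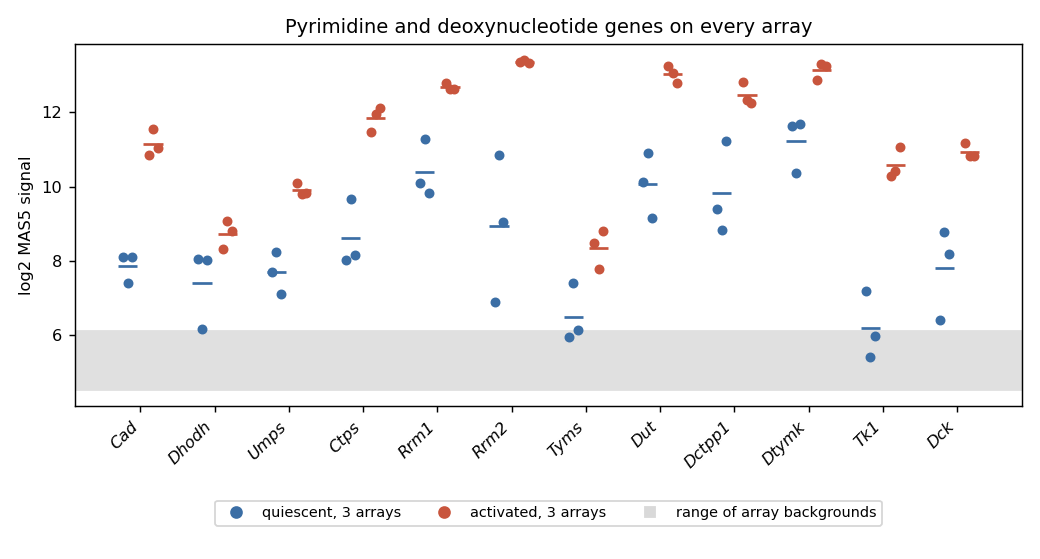
Log2 MAS5 signal of the 12 pyrimidine and deoxynucleotide members on each array, with group means as lines and the range of the array backgrounds in grey. Activated points lie above quiescent points in every gene, and the quiescent points are more widely spread, most of all for Rrm2.

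Quiescent arrays were less alike than activated arrays in this arm. The quiescent SD was the larger in 12 of 12 pyrimidine and deoxynucleotide members, with a median SD of 0.89 against 0.27, whereas it was the larger in 5 of 10 purine members, with medians of 0.34 and 0.33. Over all genes tested the quiescent SD was the larger in 66.2%, with medians of 0.53 and 0.35. Quiescent array 2 had the highest quiescent signal for 7 of the 12 members of the pyrimidine arm (Umps, Ctps, Rrm1, Rrm2, Tyms, Dut and Dck), for 1 of 10 purine members and for 26.8% of all genes tested. It was also the lowest for 5 of the 12, so the array was not raised for the arm as a whole.

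Other genes of the same pathways moved in both directions. From lists of 87 further genes, 75 were matched and 61 tested, of which 11 were called higher and 10 lower. Of all genes tested, 17.3% were called higher and 17.6% lower, so the counts for the 61 genes were near these shares. Among serine, glycine and folate genes 3 of 22 were higher and 6 lower, with a median difference of -0.42, among purine genes 2 of 19 were higher and 2 lower (median 0.07), and among pyrimidine and deoxynucleotide genes 6 of 20 were higher and 2 lower (median 0.14). The members named here are the up to 3 called genes with the largest difference in each direction of each list.

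The largest lower calls of the serine, glycine and folate list were Slc7a10, Aldh1l1 and Slc6a9. Slc7a10, a transporter that exchanges D-serine and other small amino acids, read 11.69, 11.27 and 11.81 on quiescent and 5.71, 7.25 and 5.27 on activated arrays, a difference of -5.51 ± 0.52 (adjusted p = 6.51e-05). Aldh1l1, the cytosolic folate dehydrogenase used as an astrocyte marker, which oxidises the formyl group that purine synthesis would use, read 11.64, 11.15 and 11.23 against 7.42, 7.41 and 8.09 (-3.70 ± 0.35, adjusted p = 6.53e-05). Slc6a9, a glycine transporter, differed by -3.23 ± 0.67 (adjusted p = 0.00426). The groups did not overlap in any of these genes. In the other direction Ahcy, which clears S-adenosylhomocysteine in the methionine cycle, read 8.91, 10.23 and 9.69 against 11.81, 11.80 and 11.93 (2.24 ± 0.35, adjusted p = 0.000844). Mthfd2l, a mitochondrial relative of Mthfd2, was higher by 1.85 ± 0.47 (adjusted p = 0.0122), and Mtrr, which reactivates methionine synthase, by 1.54 ± 0.54 (adjusted p = 0.0464).

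Among the further purine genes, Itpa, which hydrolyses inosine triphosphate, rose at least 5.53-fold (adjusted p = 0.00975), with 2 quiescent arrays at background. Adss, the synthetase of the adenylate branch, was higher by 1.05 ± 0.32 (adjusted p = 0.0274). Ak4, a mitochondrial adenylate kinase, was lower by a difference of -3.68 ± 0.46 (adjusted p = 0.000236), and Pnp, the purine nucleoside phosphorylase, by -1.25 ± 0.28 (adjusted p = 0.00597). Uck2, a uridine and cytidine kinase, had the largest difference of the pyrimidine list. It read 4.56, 6.68 and 6.20 on quiescent and 10.82, 10.75 and 10.66 on activated arrays, at least 21.3-fold higher (adjusted p = 0.000154). Of the 5 tested nucleoside diphosphate kinase genes of the list, 4 were called higher (Nme1, Nme2, Nme4 and Nme6) and 1 lower. Nme4 rose at least 8.95-fold (adjusted p = 0.00169), with 1 quiescent array at background. Nme6 was higher with an adjusted p of 0.0363, with 2 quiescent arrays at background. Nme7 was lower by a difference of -1.71 ± 0.39 (adjusted p = 0.00758). Rrm2b, the small ribonucleotide reductase subunit that serves resting cells and DNA repair, read 9.89, 9.81 and 10.12 against 8.97, 8.85 and 9.15 (-0.95 ± 0.32, adjusted p = 0.0410). Pnp and Nme7 lost their calls under both median centring and the hybridisation controls, as did Rrm2b, which also lost it whenever any 1 array was left out. Single arrays also decided smaller calls: Mthfd2l lost its call without activated array 2 (adjusted p = 0.0547), and Adss without quiescent array 1 or 2 or activated array 1 or 2 (adjusted p up to 0.132). Mtrr lost it when any array but quiescent array 2 was left out (adjusted p up to 0.151), and Nme6 when any array but quiescent array 3 was left out (adjusted p up to 0.105).

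Several members have a relative that serves mitochondria, resting cells or other tissues, and gaps within an array compare them free of scaling. These 5 pairs were picked after their values had been seen and carry no test. The gap of Rrm2 over Rrm2b was -2.99, 1.04 and -1.08 on quiescent and 4.40, 4.55 and 4.19 on activated arrays, a change of 5.39. That of Tk1 over the mitochondrial kinase Tk2 was 1.69, -1.63 and -1.47 against 3.57, 3.15 and 4.87, a change of 4.33. That of Ctps over Ctps2 changed by 3.14, that of Uck2 over Uck1 by 5.06 and that of Dck over the mitochondrial kinase Dguok by 3.03. No gap overlapped between the groups, although for Dck and Dguok the lowest activated gap exceeded the highest quiescent one by only 0.24. Uck2, Tk1 and Tk2 each had a quiescent reading at background, so the size of these changes is uncertain, and with the mean of all probe sets the change for Uck2 and Uck1 was 2.80. The partners Ctps2, Tk2, Dguok and Uck1 themselves differed by 0.09, 0.07, 0.11 and -0.13 and were not called (adjusted p of 0.845 to 0.943). Their signs turned in some alternatives, and with the mean of all probe sets Ctps2 was lower (-1.18, adjusted p = 0.0388), so they are not shown to be level.

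**Figure D5:**
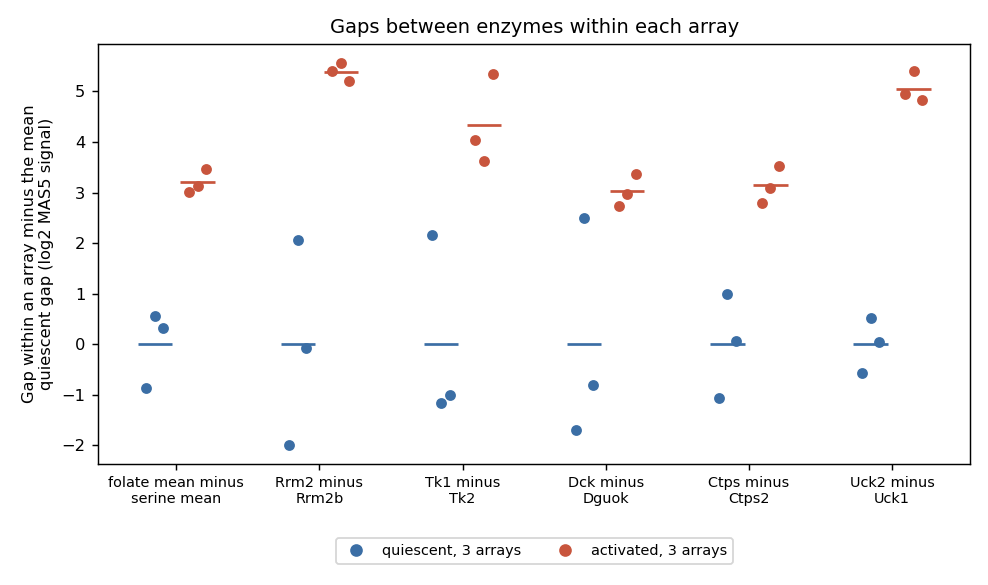
Gap between enzymes within each array, each minus the mean quiescent gap, in log2 units, for the 5 folate enzymes minus the 3 serine synthesis enzymes and for 5 pairs of related enzymes. Lines are group means. Activated arrays lie above all quiescent arrays in each comparison, closest for Dck and Dguok.

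Probe sets of the same gene gave the same direction in most members. The 32 matched members had 75 single-gene probe sets, 21 members had several, and in 20 of these every probe set had the same sign, Ppat being the exception. Sizes varied more than signs: the 4 probe sets of Shmt2 ran from 0.35 to 2.59, the 3 of Rrm1 from 0.30 to 2.87, the 4 of Shmt1 from 1.93 to 4.51 and the 4 of Umps from 1.69 to 4.03. Of the 25 called members, 16 kept their call in every alternative that tested them (the stricter dim filter left out Mthfd1l), all of them higher members. These were Shmt1, Shmt2, Mthfd2 and Mthfd1l, Gmps and Hprt, and Cad, Umps, Ctps, Rrm1, Rrm2, Tk1, Dut, Dck, Dctpp1 and Dtymk. No called member changed sign in any alternative.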

How the data were processed

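The labels' protocols record total RNA purified with miRNeasy, NuGEN Pico amplification and biotin labelling. The authors computed the deposited log2 signals with MAS5, per the submitters' processing notes. Its version and a genome build were not found in these sources. Each array's 2% trimmed linear mean was close to 500.0, so differences in total RNA per cell are removed, and MAS5 values near background are noisy. The number of arrays limits the precision.

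Tests did not include the 64 control probe sets. The platform annotation paired 34945 probe sets with 1 gene, 932 with several and 9160 with none, and the first kind was used. The brightest probe set stood for a gene. Genes whose mean over all arrays reached the 40th percentile (log2 6.02) were tested. Mthfd1l, Uck2 and Nme6 had quiescent means below that level and passed through their activated signals. The tests used lmFit and eBayes with trend in limma 3.58.1 under R 4.3.3. The same fit was afterwards run on simulated arrays built from the means and SDs of the real ones. Calls used a Benjamini-Hochberg adjusted p under 0.05. A signal was at background where it lay at or below the 95th percentile of the array's bacterial controls. An "at least" fold sets such values of the lower group to that level. Alternatives were quantile normalization, median centring, hybridisation control scaling, pseudocounts of 16 and 64, values raised to background, other dim filters, other probe set rules, other variance models, a replicate block and leaving out each array. Symbols and promoters come from RefSeq tables of GRCm38.p6, in which 99.1% of Entrez identifiers were found. Members, lists, motifs and pairs were chosen with earlier results of these data known. Members were all named, the further pathway genes by size of called difference within each list. Figures used matplotlib 3.10.9.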

Additional observations from a re-analysis of the deposited data

How the results depend on the processing

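Across the alternatives the counts of higher serine and folate members and of higher pyrimidine and deoxynucleotide members stayed within 1.5 times their values of 5 and 11. The 4 lower serine and folate calls became 1 with median centring, 0 with the hybridisation controls and 1 without the variance trend, and ranged from 1 to 4 with single arrays left out. The 5 higher purine calls became 9 with median centring and 8 with the hybridisation controls. Over all genes, 2004 higher and 2040 lower calls became 3527 and 1191 with median centring and 3059 and 943 with the hybridisation controls, and ranged from 1315 to 2440 and from 1540 to 2176 with single arrays left out. Median centring moved the all-gene median to 0.57. Quiescent and activated arrays of the same number did not deviate together (correlations of 0.03, -0.09 and 0.01), and a replicate block gave 1955 higher and 1979 lower calls, of which 4 and 3 in the serine and folate arm, 6 and 0 in the purine arm and 11 and 0 in the pyrimidine arm.

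Signs turned only for uncalled genes. Pfas reached 0.38 with median centring, 0.47 with the hybridisation controls and -0.37 to 0.0489 with single arrays left out. Tk2 reached -0.000153 with a pseudocount of 64, -0.13 with values raised to background and -0.51 to 0.47 with single arrays left out. Dguok ran from -0.64 to 0.72 and Ctps2 from -0.16 to 0.33 with single arrays left out, and Ctps2 was -1.18 with the mean of probe sets. Uck1 was 0.0576 with quantile normalization, 0.43 with median centring, 0.52 with the hybridisation controls and -0.47 to 0.0489 with single arrays left out. The causes were not tested. Of the tested pathway genes named, Mthfd1l, Tyms, Tk1, Tk2, Uck2 and Nme4 have 1 quiescent array at background, and Itpa and Nme6 have 2. There the signal over background limits the size of a difference.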
